A study of Homo sapiens with 15 samples.

Results

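Of the 11230 rows in the authors' deposited table, 4 loci not annotated as protein-coding are described here: CTD-2201G16.1, XLOC_035785, RP11-71N10.1 and AC116609.2. They were picked by name because each had the highest deposited log2 fold change, in 1 of the 4 comparisons with control, among the 3783 rows not annotated as protein-coding. Those values chose the loci, so the high level itself is given as a description and without a test.

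The cells were HEK293FT, an established, transformed human line derived from embryonic kidney; it is not a neuron, although the series concerns long non-coding RNAs (TrEx RNAs) that appear transiently while cortical neurons form. All 15 libraries came from cells transfected with 5 guide RNAs, dCas9-VP64 and the MS2, p65 and HSF1 fusion activator, given 2 ug/mL puromycin at 24 hours and collected at 48 hours, so the controls carried the same activators and selection. There were 3 libraries in each of 5 groups: those titled trex0108 (target label TrEx108), trex4039 (TrEx4039), trex5008 (TrEx8168) and trex8168 (TrEx5008), with guides 50 to 450 bp upstream of a start site, and control, with 5 non-targeting guides. For trex5008 and trex8168 the title and the target label carry each other's number. The table's columns use the titles, and so does the text below; the sources used here do not pair a TrEx number with any of the 4 loci.

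In CRISPR activation, a Cas9 protein that cannot cut is guided to the DNA just before a start site and carries domains that recruit the transcription machinery. A pool of guides is used because single guides vary in strength. A long non-coding RNA is a transcript without a known protein product; lincRNAs lie between protein-coding genes and antisense RNAs overlap one on the opposite strand. Activators placed at such a locus can also reach promoters nearby, which is why the genes around each locus are described as well.

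The loci lie on 3 chromosomes (hg19 coordinates of the table). CTD-2201G16.1, annotated as antisense, spans chromosome 14, 23871736 to 23889217, and overlaps the row of MYH6 over 7134 bp, 40.8% of its own interval. XLOC_035785, with no annotated type, spans 95961 bp of chromosome 2, 56180865 to 56276825. RP11-71N10.1, a lincRNA, spans 67201 bp of chromosome 3, 147657714 to 147724914. AC116609.2, a lincRNA, spans 11897 bp near the short-arm end of chromosome 2, 739816 to 751712, and lies 55.4 Mb from XLOC_035785.

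AC116609.2 is the member with a transcript of the same name in GENCODE v29 (build GRCh38), chr2:741977-749856 on the plus strand. Its sequence is shown because it is the annotated transcript of the locus that was high in the libraries titled trex8168; transcript and row are matched by name alone, and the counted row may hold other transcripts. The transcript has 2 exons of 133 and 123 bases; capitals mark exon 2.
AC116609.2: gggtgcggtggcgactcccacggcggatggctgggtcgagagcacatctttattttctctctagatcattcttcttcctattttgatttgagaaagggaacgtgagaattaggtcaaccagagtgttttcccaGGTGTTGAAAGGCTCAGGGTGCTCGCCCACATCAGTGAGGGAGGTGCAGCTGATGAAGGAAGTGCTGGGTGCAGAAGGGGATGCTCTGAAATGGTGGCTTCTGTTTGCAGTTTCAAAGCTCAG

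The table holds means over the 3 libraries of a group, in normalised counts, without a spread and without values per library. No SD can therefore be given, neighbouring levels within a locus cannot be ranked beyond error, and depth is unknown. The means are not corrected for transcript length, so levels are compared within a locus and not between loci. Adjusted p-values are the authors' own, read at a threshold of 0.05; they rest on the spread between the 3 libraries of a group, biological triplicates per the labels.

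CTD-2201G16.1 was high in trex0108 and below 10 normalised counts in the other groups. Its authors' means in trex0108, trex4039, trex5008, trex8168 and control were 796.6, 7.63, 6.15, 4.59 and 3.40 normalised counts. The trex0108 mean was 234.6 times the control mean and 104.5 times the next highest group, trex4039, and 97.3% of the summed group means lay in trex0108. The control mean corresponds to 10.2 normalised counts summed over 3 libraries, so the ratio rests on few control reads. In bulk RNA, more cells carrying the activators and more RNA per cell cannot be told apart.

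RP11-71N10.1 had the highest ratio of means of the 4 loci. In trex0108, trex4039, trex5008, trex8168 and control its authors' means were 5.37, 4.51, 1285, 2.32 and 4.51 normalised counts. The trex5008 mean was 285.1 times the control mean and 239.2 times the next highest, in trex0108, and held 98.7% of the summed means. Its control libraries summed to 13.5 normalised counts.

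XLOC_035785 was the locus with the smallest deposited log2 fold change of the 4. Its authors' means were 14.4, 491.9, 11.3, 11.2 and 12.2 normalised counts in trex0108, trex4039, trex5008, trex8168 and control. The 4 groups other than trex4039 lay between 11.2 and 14.4, and the trex4039 mean was 40.2 times the control mean and 34.2 times the next highest.

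AC116609.2 was counted in every group, with its lowest mean in trex5008. Its authors' means in trex0108, trex4039, trex5008, trex8168 and control were 149.8, 331.1, 138.1, 3908 and 162.5 normalised counts. The trex8168 mean was 24.0 times the control mean, the smallest ratio of the 4 loci, and 11.8 times that of trex4039, which held the second highest mean. Of the summed group means, 83.3% lay in trex8168, against 90.9% in trex4039 for XLOC_035785.

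**Figure D1:**
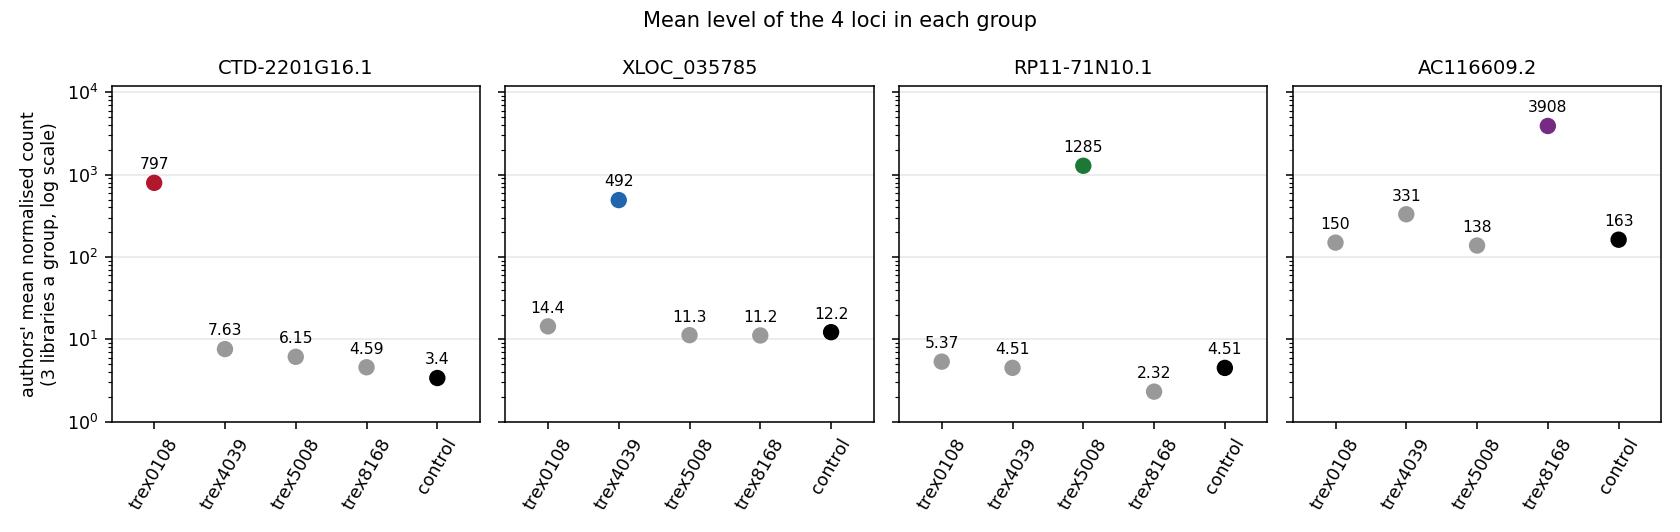
Authors' mean normalised count (log axis) of each locus in the 4 target groups and, at the right of each panel, control. Each point is a mean of 3 libraries with no error available; the coloured point is the group in which the locus is highest. AC116609.2 also stands at 331.1 in trex4039, above 162.5 in control.

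On the scale of the authors' log2 fold changes, which are shrunken toward 0, the same contrasts were smaller than the ratios of the means. The authors' deposited table gives 4.97 for CTD-2201G16.1 in trex0108, 3.75 for XLOC_035785 in trex4039, 5.56 for RP11-71N10.1 in trex5008 and 4.23 for AC116609.2 in trex8168. The log2 ratios of the means were 7.87, 5.33, 8.16 and 4.59 in the same order, so the deposited value was lower by 2.91, 1.58, 2.60 and 0.35. AC116609.2 had the smallest gap of the 4 between the scales. The adjusted p was 1.6e-169 for XLOC_035785 and is listed as 0 for the other 3 in the authors' deposited table.

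These calls sit on unequal backgrounds, and since the contrasts chose the loci nothing is read from them. By the authors' adjusted p, 5.65% of the rows with an adjusted p were called higher in trex0108, 37.1% in trex4039, 29.8% in trex5008 and 14.6% in trex8168. Every listed row reached an adjusted p under 0.1 somewhere among the 4 comparisons, so these shares are not those of the whole transcriptome.

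In trex4039 and trex5008 the locus chosen there stood alone at the top of the shrunken log2 fold changes. Its first place among rows not annotated as protein-coding follows from the choice. The authors' deposited table has 1 row of any type whose log2 fold change reached 1 in each of these 2 comparisons: XLOC_035785 and RP11-71N10.1. The next rows were PKLR, a pyruvate kinase gene, at 0.89 in trex4039, and CATG00000048904.1 at 0.88 in trex5008 in the authors' deposited table. By their means these rows differed more than the shrunken values show. PKLR had 1320 in trex4039 and 403.6 in control, and CATG00000048904.1 had 85.0 in trex5008 and 24.2 in control. In trex8168, 10 rows reached 1, 2 reached 2 and 1, AC116609.2, reached 3.

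In trex0108 the locus was one of many. The authors' deposited table has 99 rows at 1 or more, 21 at 2 or more and 7 at 3 or more, and RUFY4, at 5.23, ranked above CTD-2201G16.1. The liver aminotransferase gene AGXT followed at 4.21 in the authors' deposited table.

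Just outside the choice stood the second-ranked rows not annotated as protein-coding. In trex0108 this was CATG00000005887.1, at 4.14 in the authors' deposited table, with means of 392.9 in trex0108 and 0.616 in control. In trex4039 it was AC116609.2 itself, at 0.89, and in trex8168 CATG00000013615.1, at 2.39 in the authors' deposited table, with means of 119.4 in trex8168 and 0.616 in control. By the log2 ratio of means with 1 added, CATG00000005887.1 (7.93) ranked above CTD-2201G16.1 (7.50). On that scale CATG00000013615.1 (6.22) and CATG00000013817.1 (4.78) ranked above AC116609.2 (4.58), so the choice of these 2 loci depends on the shrunken scale.

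**Figure D2:**
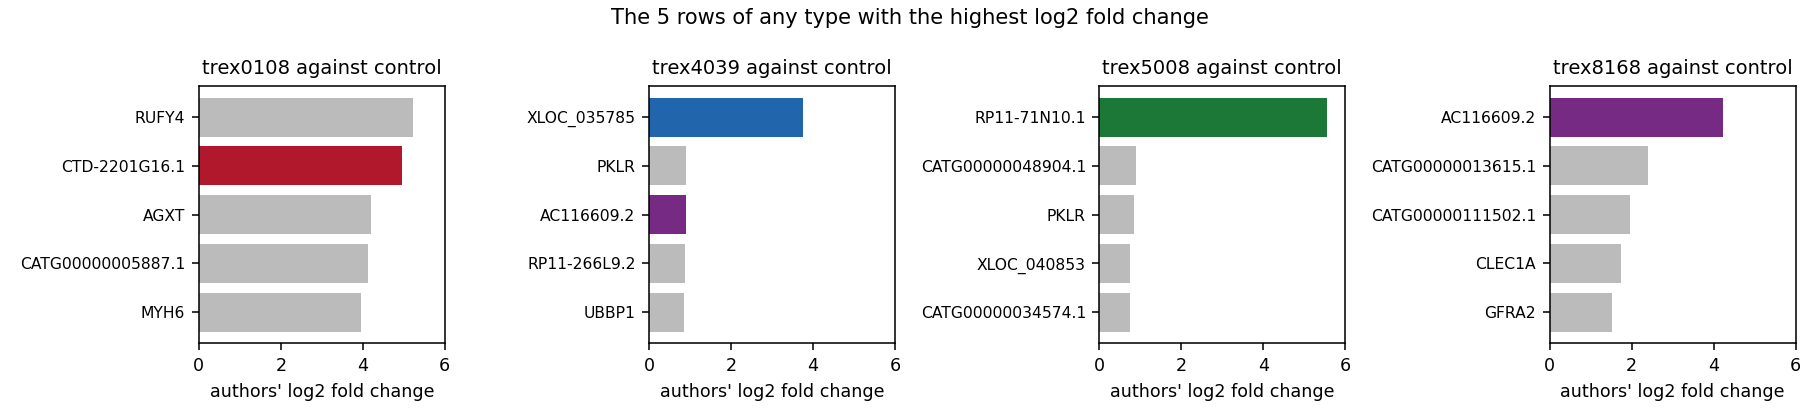
The 5 rows of any type with the highest authors' log2 fold change (shrunken, target group over control) in each comparison; coloured bars are the 4 loci. XLOC_035785 and RP11-71N10.1 stand at 3.75 and 5.56 with the next rows at 0.89 and 0.88, while RUFY4 at 5.23 leads in trex0108.

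A second count used the group means alone. A row was counted where its mean plus 1 in a group was at least 10 times that in each of the other 4 groups. There were 23 such rows for trex0108, 1 for trex4039, 1 for trex5008, 2 for trex8168 and 0 for control. Each target group's count included its locus, which follows largely from how the loci were chosen and is a description. Other rows high in 1 group may be listed only through that group. The 1 row beside AC116609.2 in trex8168 was CATG00000013615.1. The 23 rows of trex0108 held 12 protein-coding genes, among them CDX1, an intestinal homeobox factor, with means of 175.9 in trex0108 and at most 3.40 in the other groups, and FGF21, a liver hormone, with 130.3 in trex0108 and at most 6.40 in the others.

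In the comparisons that did not choose them, the loci were mostly not called. Of the 12 such values, 1 passed the authors' adjusted p of 0.05: AC116609.2 in trex4039. Its authors' mean was 331.1 in trex4039 and 162.5 in control, a ratio of 2.04. The authors' deposited table puts this at 0.89 on the log2 scale (adjusted p 5.06e-20). Of all listed rows with an adjusted p, 70.7% were called in trex4039, so a call there is common. By deposited log2 fold change, which is shrunken, AC116609.2 ranked 3 among all rows of that comparison, and the median over all rows was 0.03. That rank depends on the scale: UBBP1, below it at 0.84, had means of 68.4 in trex4039 and 15.9 in control, a larger ratio.

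The other 11 values were small on the deposited scale. For CTD-2201G16.1, XLOC_035785 and RP11-71N10.1 the means in the other target groups were at most 7.63, 14.4 and 5.37 normalised counts. At such low levels a change may go uncalled, so a missing call does not show that the level was unchanged. CTD-2201G16.1 had log2 fold changes of 0.24 in trex4039, 0.15 in trex5008 and 0.13 in trex8168 in the authors' deposited table, with adjusted p of 0.209, 0.475 and 0.616. All 3 of its means were above the control mean, by ratios of 2.25, 1.81 and 1.35. XLOC_035785 had 0.09 in trex0108, -0.02 in trex5008 and 0.03 in trex8168 in the authors' deposited table, with adjusted p of 0.999, 0.948 and 0.924.

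RP11-71N10.1 had 0.08 in trex0108, 0.07 in trex4039 and 0.00402 in trex8168 in the authors' deposited table, with adjusted p of 0.999, 0.761 and 0.991. Its mean in trex8168 was 2.32, against 4.51 in control, a log2 ratio of -0.96, so the deposited value and the ratio of means differ in sign there. AC116609.2 had -0.09 in trex0108 and -0.17 in trex5008 in the authors' deposited table, with adjusted p of 0.999 and 0.179. The comparisons share their control libraries. In trex0108, trex5008 and trex8168, 5.89%, 54.1% and 21.0% of the rows with an adjusted p were called in either direction.

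**Figure D3:**
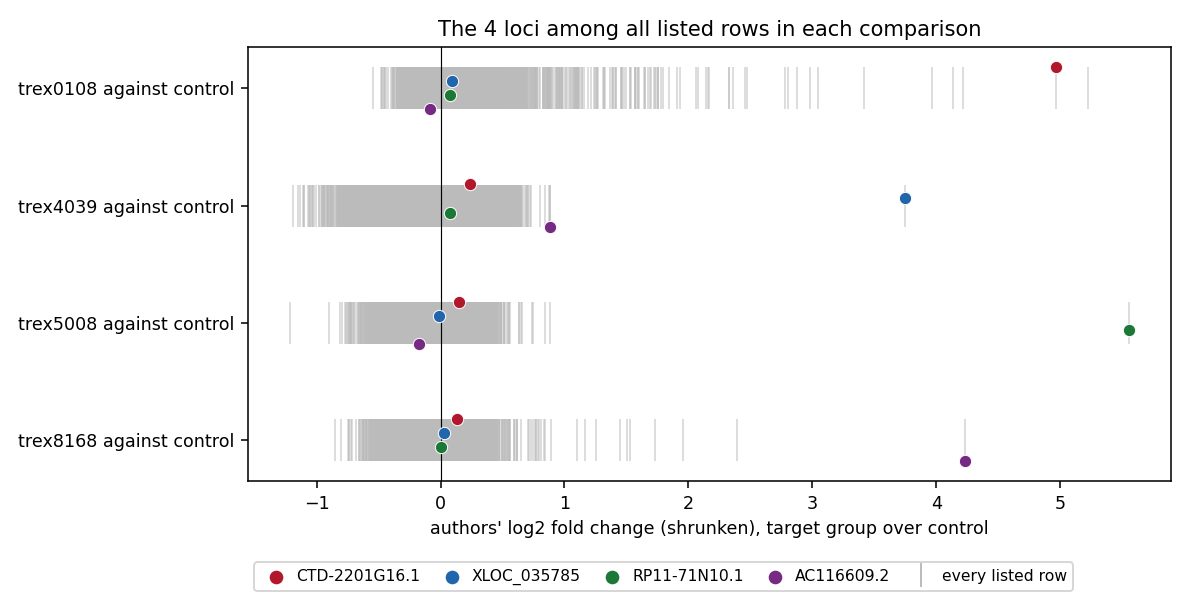
Authors' log2 fold change (shrunken, target group over control) of every listed row (grey ticks) and of the 4 loci (points) in the 4 comparisons. Each locus lies far to the right in 1 comparison, from 3.75 to 5.56, and between -0.17 and 0.24 in the others, except AC116609.2 at 0.89 in trex4039.

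Around CTD-2201G16.1, the overlapping row of MYH6 and some of the nearby rows rose in trex0108. MYH6, the cardiac alpha myosin heavy chain, had authors' means of 1184 in trex0108, 52.0 in trex4039, 47.8 in trex5008, 48.9 in trex8168 and 50.1 in control. The 3 other target groups thus lay at the control level. The authors' deposited table gives MYH6 a log2 fold change of 3.97 in trex0108, and adjusted p of 0.809, 0.881 and 0.996 in trex4039, trex5008 and trex8168. The kit keeps strand, but the sources used here do not give how strand entered the counting, and reads of MYH6 and CTD-2201G16.1 in their shared stretch may have been counted together.

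The MYH6 promoter is shown because MYH6 is the row that overlaps a member and rose with it. The window is from RefSeq (GRCh38.p14), chr14:23408224-23408523 on the minus strand, 250 bases before to 50 after the start. Capitals mark TATAAA, the core of a TATA box, found 1 time on the sense strand, 30 bases before the start, and 0 times on the other strand.
MYH6: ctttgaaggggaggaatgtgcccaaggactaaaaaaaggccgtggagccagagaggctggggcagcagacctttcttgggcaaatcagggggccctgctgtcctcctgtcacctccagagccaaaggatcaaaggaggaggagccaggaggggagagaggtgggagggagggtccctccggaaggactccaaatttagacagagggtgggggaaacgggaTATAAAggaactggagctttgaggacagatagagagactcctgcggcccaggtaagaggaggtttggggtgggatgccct
On either strand, 11.5% of the 35116 RefSeq promoters of this length hold TATAAA; the match is a description of the letters and not a measured site.

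Within 500 kb of CTD-2201G16.1 the authors' deposited table lists 11 other rows, of which 5 were called higher and 0 lower in trex0108, where 5.65% of all rows were called higher and 0.249% lower. Of these 5 rows, 4 (MYH6, CATG00000018307.1, ZFHX2 and CEBPE) had an adjusted p under 0.1 in trex0108 alone and are therefore listed only through that comparison, so the count is a description and not support for a local rise. CEBPE, a transcription factor gene of myeloid cells 282.3 kb away, had authors' means of 146.8 in trex0108 and 4.63 in control. SLC7A8, an amino acid transporter gene 195.2 kb away, had 3112 in trex0108 and 2114 in control. The unannotated CATG00000018307.1, 3.68 kb away, had 16.0 in trex0108 and 0.289 in control, which is under 1 normalised count over the control libraries.

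The rise was not shared by every neighbour. XLOC_019262, 35.8 kb away, had means of 1201 in trex0108 and 1239 in control and was not called. ZFHX2, a homeobox gene farther out at 95.1 kb, had 1945 in trex0108 and 1522 in control and was called. XLOC_019268, 137.3 kb away, had 2670 in trex0108 and 2815 in control and was not called. Between 500 and 1000 kb, 19 further rows were listed and 0 of them were called in trex0108, where 5.89% of all rows were called. With 19 rows this count is not set apart from that share. The 5 called rows of the 1000 kb window lay within 500 kb, but no boundary is read from this. In the other 3 comparisons the same 11 rows had 1, 1 and 2 called higher and 4, 3 and 1 called lower in trex4039, trex5008 and trex8168, where 37.1%, 29.8% and 14.6% of all rows were called higher and 33.7%, 24.3% and 6.45% lower.

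Among 25 protein-coding genes chosen for this stretch of chromosome 14, 4 are listed by symbol: MYH6, CEBPE, SLC7A8 and ZFHX2. All 4 were called higher in trex0108, but 3 of them (MYH6, CEBPE and ZFHX2) are listed only through that comparison. The other genes of the list were looked up by symbol alone. Rows of this stretch named only by an identifier, such as XLOC_019262 and XLOC_019268, may hold some of them. Neither of these rows was called in trex0108, so nothing is read from the count. SLC7A8 was called lower in trex4039 and trex5008, at -0.30 and -0.33 in the authors' deposited table. MYH7, the beta myosin heavy chain gene that follows MYH6 in RefSeq, is not a listed name. Of 7 cardiac muscle genes, MYH6 and the cardiac transcription factor gene NKX2-5 are listed by symbol. NKX2-5 had means of 1614 in trex0108 and 1447 in control, and the authors' deposited table gives 0.15 on the log2 scale (adjusted p 0.656).

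Around XLOC_035785 the listed rows had small log2 fold changes in trex4039. No listed row lay within 250 kb, the nearest being PNPT1 at 259.8 kb, and all 7 rows within 1000 kb lay on the side of lower coordinates. Of these 7, 6 were called higher and 1 lower in trex4039, where 37.1% and 33.7% of all rows were. The row called lower was the antisense RNA RP11-554J4.1, 315.0 kb away, with means of 166.4 in trex4039 and 229.5 in control. XLOC_035780, 334.8 kb away, had 3494 in trex4039 and 2827 in control, and CCDC104, 406.2 kb away, had 2066 in trex4039 and 1631 in control. In trex5008, where XLOC_035785 itself had a mean of 11.3, 5 of the 7 were called higher and 0 lower, where 29.8% and 24.3% of all rows were. The median log2 fold change of the 7 in the authors' deposited table was 0.27 in trex4039 and 0.24 in trex5008.

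Of 13 genes chosen for this stretch of chromosome 2, 5 are listed by symbol (VRK2, MTIF2, CCDC104, PNPT1 and CCDC88A). VRK2, which starts at 58134787, lies beyond 1000 kb from XLOC_035785. Called higher in trex4039, trex5008 and trex8168 were 5, 4 and 2 of the listed genes, with 0 lower. Of all rows, 37.1%, 29.8% and 14.6% were called higher there. The other genes of the list were looked up by symbol alone, and rows named only by an identifier, such as XLOC_035780, may hold some of them. The authors' deposited table gives the kinase gene VRK2 log2 fold changes of 0.38 and 0.29 in trex4039 and trex5008. MTIF2, a mitochondrial translation initiation factor gene, has 0.30 in trex4039 and 0.32 in trex5008 there. CCDC88A, an actin-binding protein gene, has 0.20 in trex4039 and 0.10 in trex5008, with adjusted p of 0.00839 and 0.246. Whether trex4039 differed from trex5008 at these genes was not tested. Between PNPT1 and VRK2, RefSeq (GRCh38.p14) places the protein-coding genes EFEMP1 and CCDC85A and the microRNA genes MIR217, MIR216A and MIR216B; none of these 5 names is a listed row.

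RP11-71N10.1 had no listed row within 500 kb. Within 1000 kb there were 2, both on the side of higher coordinates. AGTR1, the angiotensin II receptor gene 690.7 kb away, had means of 47.1 in trex5008 and 47.8 in control. GYG1, a glycogenin gene 984.2 kb away, had 1977 in trex5008 and 1651 in control, and the authors' deposited table gives 0.25 on the log2 scale in trex5008 (adjusted p 7.23e-04) and 0.27 in trex4039. Of 10 genes chosen for this stretch of chromosome 3, 4 are listed by symbol, of which HLTF and PLSCR1 lie beyond 1000 kb. In trex5008, 2 (HLTF and GYG1) were called higher, and in trex4039 3 (HLTF, GYG1 and PLSCR1). Of all rows, 29.8% and 37.1% were called higher there. ZIC1 and ZIC4, neural transcription factor genes that RefSeq places between PLSCR1 and AGTR1, are not listed names.

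AC116609.2 had 3 listed rows within 1000 kb, and 0 of them were called in trex8168, where 21.0% of all rows were called; with 3 rows this count is not set apart from that share. The antisense RNA AC116614.1, 192.9 kb away, had means of 227.8 in trex8168 and 220.1 in control, and XLOC_032422, 434.8 kb away, had 4100 in trex8168 and 3572 in control (adjusted p 0.0542, authors' deposited table). XLOC_035149, 872.6 kb away, had 3332 in trex8168 and 3335 in control. In trex4039, where AC116609.2 was also called, XLOC_032422 was called higher and AC116614.1 lower. None of 9 protein-coding genes chosen for this stretch, such as TMEM18 and MYT1L, is a listed name. They were looked up by symbol alone, and rows named only by an identifier, such as XLOC_032422 and XLOC_035149, may hold some of them.

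**Figure D4:**
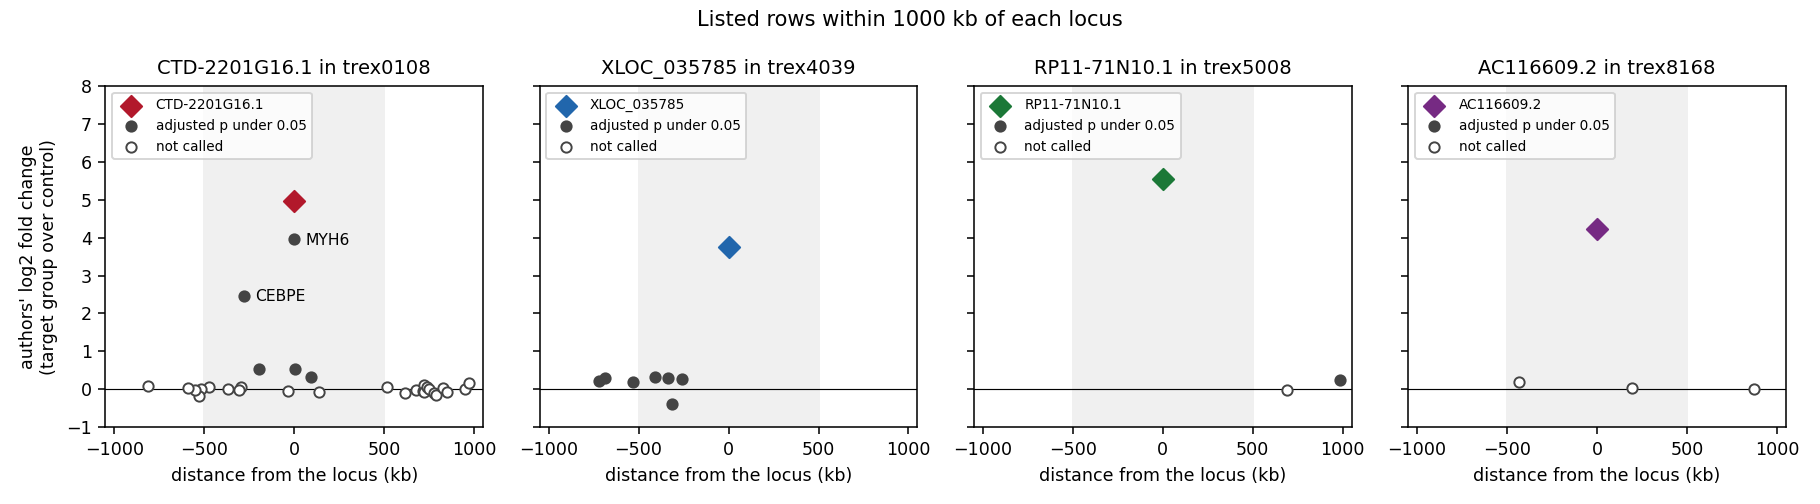
Authors' log2 fold change (shrunken, target group over control) of listed rows within 1000 kb of each locus against their distance in kb (0 where they overlap; negative toward lower coordinates), in the group where the locus is highest. Filled points have an adjusted p under 0.05, the grey band is 500 kb either side, and MYH6 (3.97) and CEBPE (2.47) are the neighbours above 1.

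The rows with the most similar pattern over the groups were found by Pearson correlation of log2(mean + 1) over the 5 groups. Candidates were the 185 rows with a highest mean of at least 50 that was at least 2 times the control mean. By deposited log2 fold change, 99 rows reached 1 in trex0108, 1 in trex4039, 1 in trex5008 and 10 in trex8168. How close a match can be found for a locus therefore depends partly on this filter. The 5 points come from the same libraries for every row and 1 high group leads them, so the values are descriptions without a p. Closest to CTD-2201G16.1 were AGXT, XLOC_009760 and CTC-529P8.1, each with r of 0.999. AGXT had means of 422.2 in trex0108 and 1.56 in control, and CTC-529P8.1 had 51.9 and 0.327. XLOC_009760 had 341.3 in trex0108 and 104.5 in control, a far smaller difference, since r compares the pattern and not its size.

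Closest to XLOC_035785 were TMEM31 (r of 0.987), XLOC_061466 (0.890) and RP11-734J24.1 (0.872), with far smaller differences: TMEM31 had means of 74.7 in trex4039 and 37.1 in control. RP11-71N10.1 had no close match among these candidates, the nearest being the pseudogene KLKP1 at 0.809, with means of 244.2 in trex5008 and 115.6 in control. CATG00000090511.1 (0.768) and CATG00000102390.1 (0.702) came next. AC116609.2 was closest to GFRA2, a GDNF family receptor gene (r of 0.983), S100A4, a calcium-binding protein gene (0.976), and CLEC1A, a C-type lectin receptor gene (0.974). CLEC1A had means of 88.1 in trex8168, 11.7 in trex4039 and 4.90 in control.

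The cell line could be checked against markers only in part, because the table lists rows called in at least 1 comparison. Of 5 neural-like genes known from HEK293 lines, NEFM and INA are listed, with control means of 5358 and 1292. Of 6 kidney epithelium markers 0 are listed by symbol, which does not show that they are absent.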

How the data were processed

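PolyA RNA of HEK293FT cells was sequenced from 15 libraries. The submitters' processing notes name the builds hg19 and GRCh37 and, without their roles, DESeq2 1.14.1, DESeq, STAR 2.5.1b, Bowtie2 2.2.1, Cufflinks and bedtools. Group levels are a deposited signal, normalised counts averaged by the authors. The deposited log2 columns are the authors' fold changes over control, and the deposited p-value columns hold the authors' adjusted p. The authors' call column, a score of -1, 0 or 1 per the file headers, equals an adjusted p under 0.1. Values per library were not analysed here, so no model was fitted, no replicate was left out and no interval can be given.

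Computed here with Python 3.11.15 and pandas 2.3.3 were ratios of means, ranks, distances, counts and correlations. The count of rows standing out in a group and the correlations were tested on simulated group means with a planted rise. Distances were tested on set intervals, and the ratios, ranks and other counts were not tested. The loci, gene lists and tests were chosen with earlier results of these data known. Named are the 4 loci, the next row not annotated as protein-coding, rows overlapping a locus and its 5 nearest rows within 500 kb. Also named are the 3 most similar rows and listed members of the locus lists, which were matched by symbol. Other genes named were chosen after their values were seen. Starts are given counting from 1. Of the 4 loci, 0 matched a RefSeq symbol and 1 a GENCODE v29 transcript. Alternatives tried were thresholds, pseudocounts, windows, a minimum mean and another measure of likeness.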

Additional observations from a re-analysis of the deposited data

How the results depend on the processing

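With pseudocounts of 0, 1 and 10 the log2 ratio of the means was 7.87, 7.50 and 5.91 for CTD-2201G16.1, 5.33, 5.22 and 4.50 for XLOC_035785, 8.16, 7.87 and 6.48 for RP11-71N10.1, and 4.59, 4.58 and 4.51 for AC116609.2. By the log2 ratio with 1 added, CTD-2201G16.1 and AC116609.2 ranked 2 and 3 among rows not annotated as protein-coding. In trex8168 the sign turned for XLOC_035785 (-0.13) and RP11-71N10.1 (-0.96) by the log2 ratio of means, and neither was called. Called neighbours of CTD-2201G16.1 numbered 3 within 100 kb. For XLOC_035785, 0 were higher and 0 lower within 100 and 250 kb, and 6 higher within 1000 kb. For RP11-71N10.1, 1 was higher within 1000 kb, and for AC116609.2, 1 at an adjusted p under 0.1. By Euclidean distance, 1, 0 and 1 of the 3 rows most similar to CTD-2201G16.1, RP11-71N10.1 and AC116609.2 were shared. Rows standing out in trex0108 numbered 63 at a factor of 5, 13 at 20 and 10 with a pseudocount of 10, and in trex8168 4 at a factor of 5 and 1 at 20; at 20 that row is CATG00000013615.1 and not AC116609.2. Over all listed rows, trex0108 had 54 lower at an adjusted p under 0.1 and 13 at 0.01; trex8168 had 688 higher and 288 lower at 0.01, and 1038 lower at 0.1. No paired analysis was possible because the table holds group means and its columns carry no replicate numbers; leaving out a replicate and other normalisations were not run for the same reason. With no values per library, low control means limit the ratios of CTD-2201G16.1 and RP11-71N10.1 most.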
